A study of Rattus norvegicus with 12 samples.

Results

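The neurofilament genes Nefl, Nefm and Nefh encode the light, medium and heavy subunits of the intermediate filaments that fill large axons. Their transcripts were followed through 12 RNA libraries of the rat trigeminal ganglion by their Ensembl identifiers (ENSRNOG00000013658, ENSRNOG00000013916 and ENSRNOG00000008716), 3 of the 32545 genes in the files. These genes were chosen by name, though with earlier results of these data known. The libraries come from the right ganglion of female Sprague Dawley rats that carried a hormone capsule for 1 week, with 3 libraries in each of 4 groups. Vehicle capsules held only cholesterol, and the remaining capsules delivered estradiol (E2), an ovarian estrogen. It was given at 5%, named a diestrus level in the labels, at 20%, named a proestrus level, or at 40%, named a therapeutic level. The labels name the group and replicate number of each library but not its animal, and they give neither the age of the rats nor whether their ovaries were removed, so that p-values measure the spread between these libraries.

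Neurofilaments are assembled from the light subunit together with the medium and heavy subunits, whose long tails reach out from the filament and are heavily phosphorylated in axons. They set the calibre of myelinated axons and with it the speed of conduction. In sensory ganglia the subunits are present in many neurons but are richest in the large ones that give rise to myelinated fibres, which is why the heavy subunit is a common marker of those cells. In a whole ganglion, however, fewer large neurons and less of the transcript in each of them cannot be told apart.

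The files hold FPKM, in which fragments are divided by the length of the gene model and by the depth of the library, so that levels of different genes can be set side by side. Whole fragments could be recovered from these values, and the libraries held 13281981 to 16978830 of them. Vehicle replicate 1 stood apart from the rest over all genes, with a mean root mean square difference of 0.497 from the other libraries on the log2(FPKM + 1) scale, against at most 0.455 for any other, and results that rest on it are also given without it. The files give no gene symbols and none of their identifiers matched the RefSeq table of assembly GRCr8. Genes of other neuronal filaments, of large and small neuron classes, of glia and of neurofilament kinases were therefore not analysed here, and the tissue label was checked only through the neurofilament genes themselves. In GRCr8, Nefl and Nefm lie on the same chromosome with no annotated protein-coding gene between them and Nefh lies on another. A predicted gene, LOC134482139, overlaps Nefm there. Whether the authors' counting used strand is not given in the sources used here, so fragments of such a gene could be counted with Nefm.

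All 3 transcripts were among the most abundant of the ganglion. By mean FPKM over the 12 libraries, Nefm ranked 7 among all genes at 2841 FPKM, Nefl ranked 8 at 2369.9 FPKM, and Nefh ranked 15 at 1539 FPKM. The order Nefm above Nefl above Nefh held in 12 of 12 libraries. The 3 genes together took 2.04% to 2.47% of the fragments of a library. Each value rested on many fragments: 94464 to 143139 for Nefl on a gene model of 3393 bases, 104798 to 151898 for Nefm on 3058 bases, and 71498 to 103343 for Nefh on 3843 bases. Counting error alone would give a coefficient of variation of at most 0.374%. Between the 12 libraries the observed coefficient was 4.96% for Nefl, 7.76% for Nefm and 5.77% for Nefh.

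**Figure D1:**
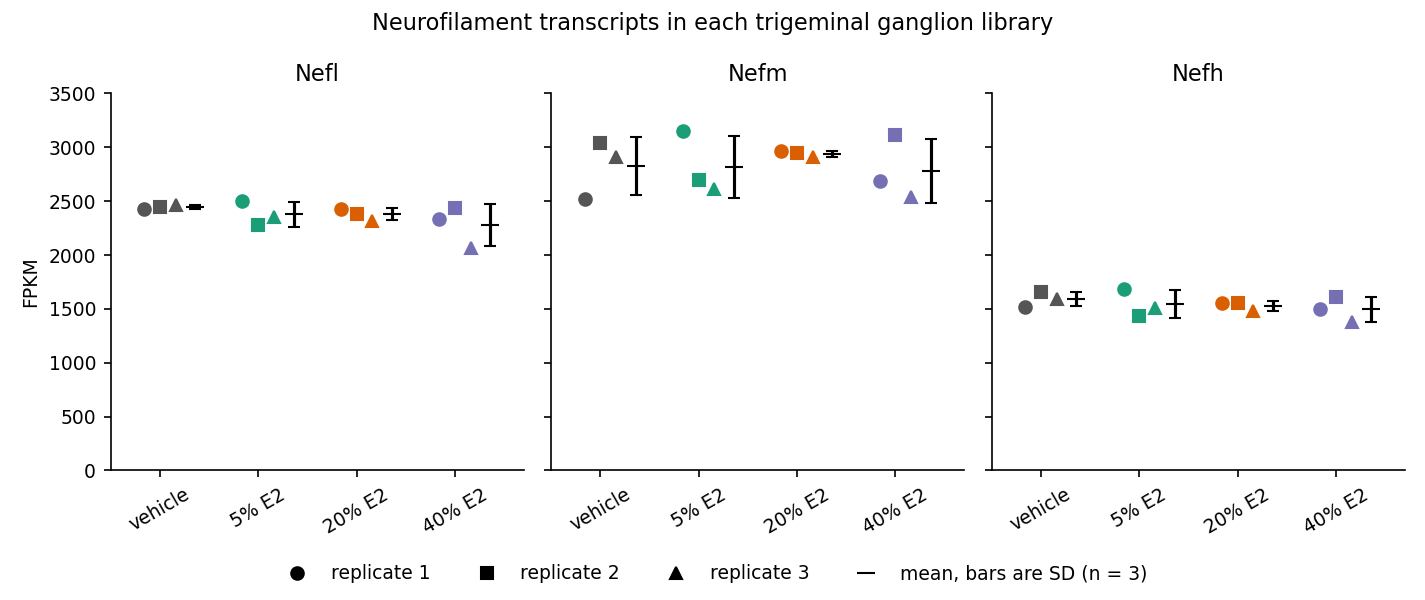
FPKM of Nefl, Nefm and Nefh (vertical axis, from 0) in each of the 12 libraries by group (horizontal axis). Points are single libraries, horizontal marks are group means and bars are SD (n = 3). All groups overlap for each gene, and the widest spread is in Nefm, from 2521 to 3148 FPKM.

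Nefl, the light subunit on which the filament is built, was the steadiest of the 3. In vehicle libraries it stood at 2423, 2447 and 2466 FPKM. At 5% E2 the values were 2505, 2276 and 2354 FPKM, and at 20% E2 they were 2431, 2381 and 2319 FPKM. At 40% E2 they were 2338, 2437 and 2062 FPKM. The highest of the 12 was 5% E2 replicate 1 and the lowest 40% E2 replicate 3, and each E2 group had at least 1 library inside or above the narrow vehicle range. Group means were 2445 ± 21.2 FPKM (SD, n = 3) in vehicle, 2378 ± 116.7 at 5% E2, 2377 ± 56.3 at 20% E2 and 2279 ± 194 at 40% E2.

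Nefm, the medium subunit, varied more. It was measured at 2521, 3044 and 2912 FPKM in vehicle, and vehicle replicate 1 was the lowest of all 12 libraries. At 5% E2 it had 3148, 2699 and 2610 FPKM, the first being the highest of the 12. At 20% E2 it had 2965, 2944 and 2906 FPKM, a far closer set than in any other group, and at 40% E2 it had 2688, 3112 and 2539 FPKM. The means were 2826 ± 272 FPKM (SD, n = 3) in vehicle, 2819 ± 288 at 5% E2, 2938 ± 29.5 at 20% E2 and 2779.6 ± 297 at 40% E2. The coefficient of variation was thus 1.00% at 20% E2 and 9.61% to 10.7% in the other groups. No test of this difference in spread was made. The vehicle coefficient rested largely on replicate 1, at 2521 FPKM. Without that library the vehicle values were 3044 and 2912 FPKM, closer together but still farther apart than those at 20% E2.

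Nefh, the heavy subunit with the longest tail, had 1519.7, 1654 and 1595 FPKM in vehicle and 1686, 1433 and 1511 FPKM at 5% E2. At 20% E2 it had 1551, 1555 and 1478 FPKM, and at 40% E2 it had 1501, 1608 and 1378 FPKM. The same 2 libraries marked the ends as for Nefl, 5% E2 replicate 1 at the top and 40% E2 replicate 3 at the bottom. The means were 1589 ± 67.3 FPKM (SD, n = 3) in vehicle, 1544 ± 129.8 at 5% E2, 1528 ± 43.4 at 20% E2 and 1496 ± 114.8 at 40% E2.

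The comparisons ask whether the dose of E2 alters the amount of neurofilament transcript. No difference was detected for any of the 3 genes at any dose. All 18 pairings of a gene with 2 groups overlapped in their values. The share of all genes that overlap in this way was not counted, so this is a description only. In the limma fit over 14781 genes (those reaching 1 FPKM in 3 or more libraries), 0 of the 3 passed an adjusted p of 0.05 in any of the 6 group comparisons, and none had an unadjusted p under 0.05 with all libraries in the fit. Few genes passed the adjusted threshold at all. The share of all genes past the threshold was 0% for 5% E2 against vehicle, 0.00677% for 20% E2 and 0% for 40% E2, and the share with an unadjusted p under 0.05 was 5.49%, 6.07% and 5.87%. Between doses the threshold was passed by 0% of genes for 20% against 5% E2 and by 0.00677% in each of the other pairs, with 4.48% of genes at an unadjusted p under 0.05 for 20% against 5% E2, 4.51% for 40% against 5% E2 and 2.9% for 40% against 20% E2.

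Against vehicle, with all 12 libraries, the largest mean difference was that of Nefl at 40% E2, which was −0.11 ± 0.07 (SE) on the log2(FPKM + 1) scale (limma adjusted p = 0.863). Its 95% confidence interval ran from −15.8% to 2.70% of the vehicle level. Nefh at 40% E2 differed by −0.09 ± 0.07 (adjusted p = 0.884, interval −16.0% to 5.13%) and Nefm by −0.02 ± 0.10 (adjusted p = 0.982, interval −14.9% to 13.6%). The first 2 of these values moved with single libraries at 40% E2. Without replicate 3, the lowest for both genes, they were −0.03 for Nefl and −0.03 for Nefh. Without replicate 2 they were −0.16 for Nefl (unadjusted p = 0.0451, limma adjusted p = 0.937) and −0.14 for Nefh (0.0950 and 0.937). At 20% E2 the log2 differences were −0.04 for Nefl, 0.06 for Nefm and −0.06 for Nefh, with adjusted p of 0.944, 0.943 and 0.931. At 5% E2 they were −0.04, −0.0038 and −0.04, with adjusted p of 0.934, 0.997 and 0.939. The 3 doses share the same vehicle libraries, so that their differences from vehicle are not independent of one another. Without vehicle replicate 1, the library with the lowest Nefm, all 9 differences from vehicle were below 0, between −0.12 and −0.02, where 8 of 9 were below 0 with it. None passed the threshold in either case.

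The 95% intervals hold for each gene alone and are not adjusted over genes, so they are not the limits of what the fit could have called. Over the 3 genes and the 3 doses, the 95% limits against vehicle lay between −16.0% and 20.6%, and over all 6 group comparisons between −18.4% and 20.9%. Between doses, Nefl differed by 0.00 between 20% and 5% E2 (interval −9.45% to 10.5%), and the largest difference with all libraries was that of Nefm between 40% and 20% E2, at −0.09 ± 0.10 (SE, limma adjusted p = 1, interval −18.4% to 8.92%). It was −0.02 without 40% E2 replicate 3 and −0.17 without 40% E2 replicate 2.

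**Figure D2:**
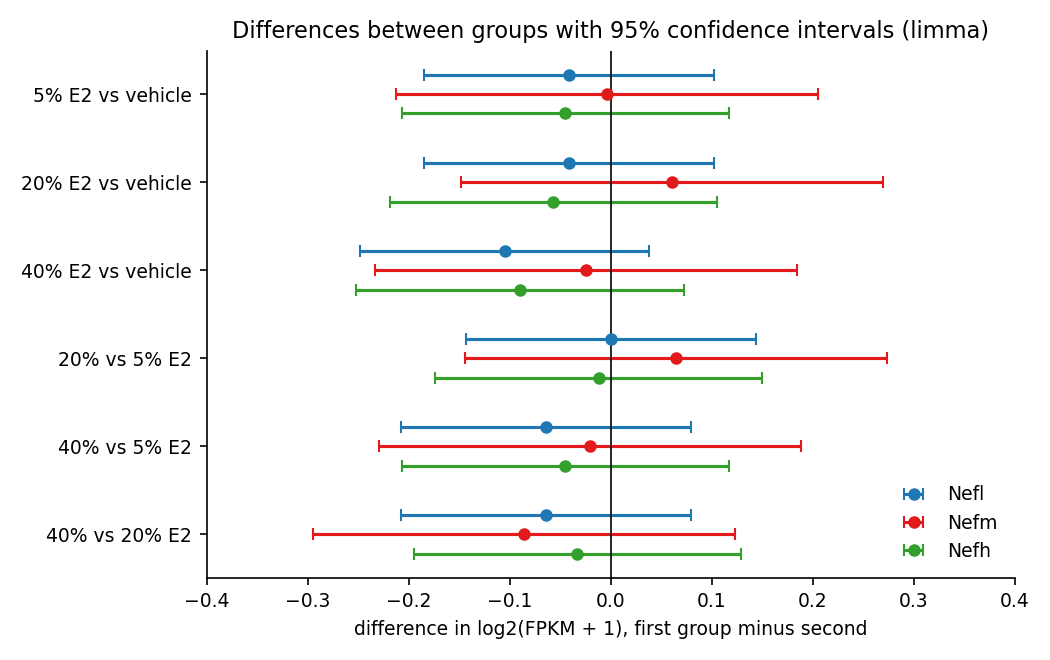
Differences in log2(FPKM + 1) between groups (horizontal axis, first group minus second) for each of the 6 comparisons (vertical axis). Points are the limma estimates and bars are 95% confidence intervals. Every interval includes 0, and the lowest and highest limits are −0.29 and 0.27.

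No trend along the dose was detected either. The fitted slopes from 0 to 40% E2 were −0.09 ± 0.06 (SE) for Nefl, −0.01 ± 0.08 for Nefm and −0.08 ± 0.06 for Nefh on the log2 scale, with limma adjusted p of 0.849, 0.985 and 0.888. Without 40% E2 replicate 3 the slopes were −0.02 for Nefl and −0.03 for Nefh, and without 40% E2 replicate 2 they were −0.13 for Nefl (unadjusted p = 0.0471, limma adjusted p = 0.9799) and −0.13 for Nefh (0.0857 and 0.9799). The threshold was passed by 0% of all genes for the slope, with 5.96% at an unadjusted p under 0.05. In the F-test of any difference among the 4 groups the adjusted p was 0.966 for Nefl, 0.975 for Nefm and 0.970 for Nefh, with 0% of all genes past the threshold and 4.79% at an unadjusted p under 0.05. Differences between groups held 27.8% of the sum of squares of Nefl over the 12 libraries, 8.69% of that of Nefm and 16.2% of that of Nefh, beside a median of 25.3% over all tested genes. The rest lay between libraries of 1 group.

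Ratios of the 3 transcripts within a library do not depend on how that library was scaled. Over the 12 libraries the FPKM ratio of Nefm to Nefl was 1.20 ± 0.0697 (SD, n = 12), that of Nefh to Nefl was 0.649 ± 0.0166 and that of Nefh to Nefm was 0.543 ± 0.0267. The ratio of heavy to light subunit was the most even. It ran from 0.627 in vehicle replicate 1 to 0.676 in vehicle replicate 2, so that a single group held both ends of the range. Without vehicle replicate 1 the lowest ratio was 0.630, in 5% E2 replicate 2. Its group means were 0.650 ± 0.0246 (SD, n = 3) in vehicle, 0.648 ± 0.0224 at 5% E2, 0.643 ± 0.00888 at 20% E2 and 0.657 ± 0.0134 at 40% E2.

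The ratio of Nefm to Nefl was less even and was lowest in vehicle replicate 1, at 1.04, against 1.11 to 1.28 in the other 11 libraries. In vehicle it averaged 1.16 ± 0.104 (SD, n = 3), at 5% E2 1.18 ± 0.0737, at 20% E2 1.24 ± 0.0170 and at 40% E2 1.22 ± 0.0644. The low value came from Nefm, which was at its minimum there, while Nefl at 2423 FPKM ranked 6 of the 12. Without that library the 11 others gave a ratio of 1.21 ± 0.0510.

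None of the 3 ratios differed between the groups beyond the spread of the libraries. An exact permutation test was run over the 15400 possible partitions of the libraries, one-sided by its statistic, and in it the log2 ratio of Nefm to Nefl gave p = 0.552, that of Nefh to Nefl p = 0.812 and that of Nefh to Nefm p = 0.204. Adjusted over the 3 ratios these were 0.812, 0.812 and 0.613. Of the 18 pairings of a ratio with 2 groups, 2 did not overlap. The Nefh to Nefm ratio was 0.5198 ± 0.0102 (SD, n = 3) at 20% E2, with all 3 libraries below all 3 in vehicle (0.565 ± 0.0331) and below all 3 at 5% E2 (0.549 ± 0.0264). The exact two-sided permutation p was 0.1 in each case, the smallest that 3 libraries against 3 can give, and 0.8 adjusted over the 18 pairings. Such separation was common: among ratios of any gene to Nefm, over 7251 genes with a mean of at least 10 FPKM, 7.90% lay wholly lower at 20% E2 than in vehicle and 4.05% wholly lower than at 5% E2. Vehicle replicate 1 had the highest Nefh to Nefm ratio of the 12 libraries, 0.603, which raised the vehicle mean. Vehicle replicates 2 and 3 had 0.543 and 0.548, closer to the highest value at 20% E2, 0.528.

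**Figure D3:**
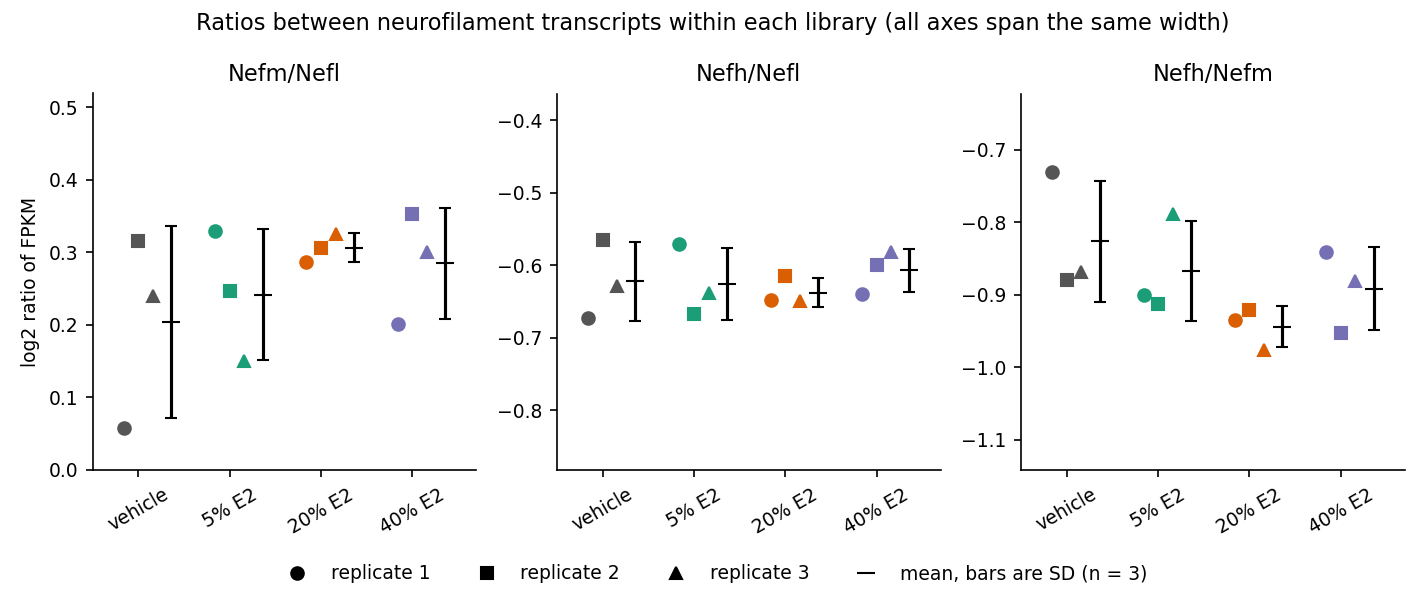
Log2 ratios of FPKM between the neurofilament transcripts (vertical axis, each panel spanning the same width) in the 12 libraries by group (horizontal axis). Points are libraries, horizontal marks are group means and bars are SD (n = 3). Nefh/Nefl stays within the narrowest band, and vehicle replicate 1 lies lowest in Nefm/Nefl at 0.06 and highest in Nefh/Nefm at −0.73.

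The 3 transcripts rose and fell together from library to library. On the log2(FPKM + 1) scale over the 12 libraries, Nefl and Nefh had a Pearson r of 0.898 and a Spearman rho of 0.958 (permutation p = 1e-05 for each, the smallest that 100000 resamples can give, and 3e-05 adjusted over the 3 pairs). Nefm and Nefh had r = 0.790 (permutation p = 0.00198, adjusted 0.00297) and rho = 0.797 (permutation p = 0.00270, adjusted 0.00405). Nefl and Nefm had r = 0.642 and rho = 0.706 (permutation p = 0.0128 for each, also after adjustment). All of these tests were two-sided.

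The covariation was also seen within the groups. With each library expressed as its deviation from its group mean, r was 0.893 for Nefl and Nefh, 0.887 for Nefm and Nefh and 0.720 for Nefl and Nefm (exact permutation within groups over 1296 arrangements, p = 0.00309, 0.00772 and 0.0370, or 0.00926, 0.0116 and 0.0370 adjusted over the 3 pairs). Leaving out the 2 libraries farthest from the median of the first gene, r became 0.883 for Nefl and Nefh, 0.799 for Nefm and Nefh and 0.517 for Nefl and Nefm (permutation p = 0.00264, 0.00981 and 0.124 adjusted over the 3 pairs, n = 10). For Nefl and Nefm the 2 libraries left out were those lowest in Nefl, 5% E2 replicate 2 and 40% E2 replicate 3, and the pass of the threshold rested on them, although leaving them out also narrows the range of Nefl. Without 40% E2 replicate 3 alone, where both genes were low, r fell to 0.558 and its permutation p no longer passed the threshold (adjusted p = 0.0752). Without vehicle replicate 1 the 3 values of r were 0.918, 0.864 and 0.811. The summed level of the 3 genes bore no detected relation to depth (r = −0.0723, rho = −0.0839, permutation p = 0.824 and 0.799, n = 12, and r = 0.0592 without the 2 libraries farthest from the median depth).

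**Figure D4:**
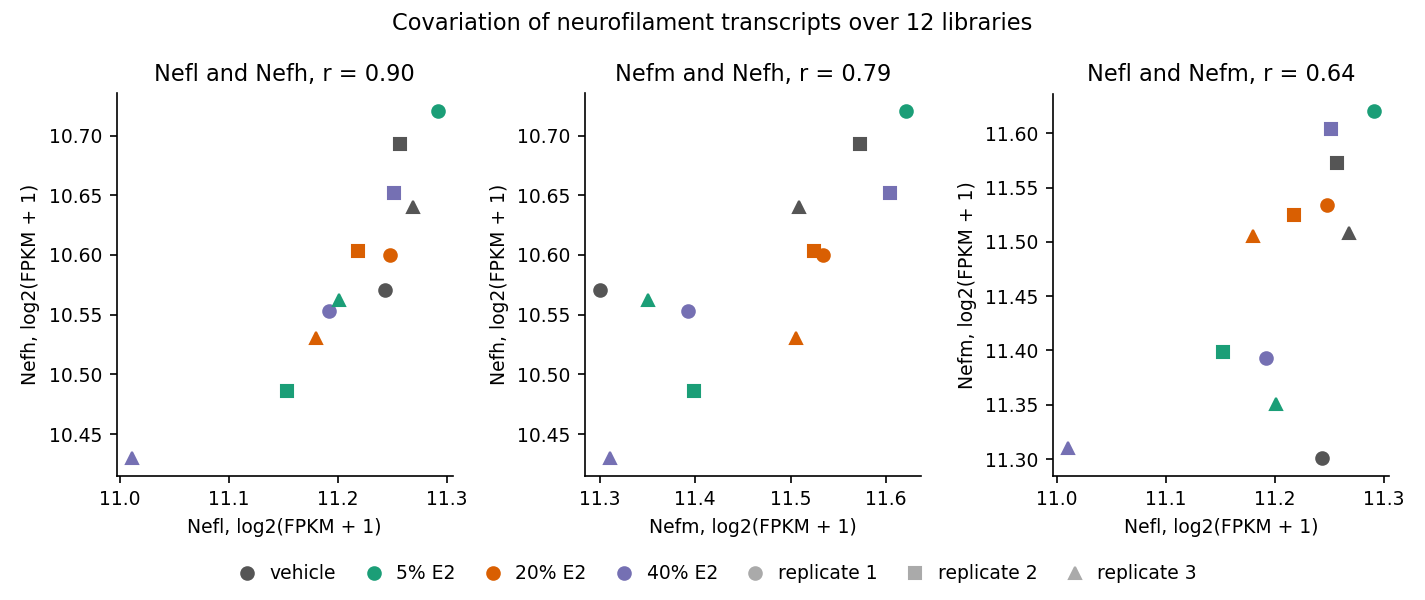
Log2(FPKM + 1) of each pair of neurofilament transcripts over the 12 libraries, with 1 gene on each axis. Colours are groups and marker shapes are replicate numbers. Nefl and Nefh lie closest to a line (r = 0.90), and vehicle replicate 1 falls below the others at its level in the plot of Nefl and Nefm (r = 0.64).

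At the top of every scale stood 5% E2 replicate 1, the highest library for all 3 genes, with a summed level of 7339 FPKM. At the bottom stood 40% E2 replicate 3, the lowest for Nefl and Nefh and next to the lowest for Nefm, with 5979 FPKM. The 40% group also held 1 of the higher libraries, replicate 2, at 7156 FPKM, so that its mean of 6554 ± 589 (SD, n = 3) overlapped the 6860.4 ± 354 of vehicle, the 6741 ± 519.6 at 5% E2 and the 6843 ± 126 at 20% E2.

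Set among all genes, Nefl and Nefh were each other's nearest companion. Of the 7251 other genes with a mean of at least 10 FPKM, Nefh ranked 1 by r with Nefl and Nefl ranked 1 by r with Nefh, and each also ranked 1 by the steadiness of its log2 ratio to the other, whose SD was 0.04. When single libraries were left out, Nefh stayed within ranks 1 to 4 for Nefl by both measures, and Nefl within ranks 1 to 2 for Nefh. Mutual nearest pairs were not rare: by r they held 44.3% of these genes, and by both measures at once 11.997%. Nor was the size of r unusual for a nearest companion, since the median gene had one at r = 0.901, and 47.3% of genes had a lower one than Nefl. How often a pair of genes named beforehand would reach such an r was not counted. Nefm was less closely tied to its partner subunits. Among the 7251 genes, Nefh ranked 27 by r with Nefm and Nefl ranked 234, or 16 and 41 without vehicle replicate 1. Leaving out single libraries, these ranks ran from 12 to 122 for Nefh and from 41 to 640 for Nefl. In the other direction, Nefm ranked 156 by r with Nefl (23 to 319 leaving out single libraries) and 8 with Nefh (7 to 43). Among the 70 genes with a mean of at least 500 FPKM, where counting error is smallest, the nearest companion of Nefm by r was Nefh (rank 1), and Nefl was next (rank 2). The median gene of this smaller set had a nearest companion at r = 0.867, above the 0.790 of Nefm with Nefh. Leaving out single libraries, Nefh held ranks 1 to 2 and Nefl ranks 2 to 6. In the same set Nefm ranked 4 by r with Nefl (2 to 13 leaving out single libraries) and 2 with Nefh.

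At a Pearson r over 0.8 across the 12 libraries, Nefl had 17 companions among genes of at least 10 FPKM, Nefm 17 and Nefh 6. The median over all 7252 such genes was also 17. At an r under −0.8, Nefl had 2 opposed genes, Nefm 12 and Nefh 3, beside a median of 14. How far variation shared by whole libraries adds to these counts was not tested. The unnamed gene most like the mean pattern of the 3, ENSRNOG00000053239, had r = 0.883 with it over the 12 libraries (0.850 to 0.913 leaving out single libraries) at 19.6 ± 2.01 FPKM (SD, n = 12). Next was ENSRNOG00000011891, with r = 0.826 (0.645 to 0.872) at 177 ± 8.61 FPKM. The most opposed were ENSRNOG00000011024, with r = −0.849 (−0.885 to −0.805) at 14.4 ± 2.67 FPKM, and ENSRNOG00000020415, with r = −0.830 (−0.883 to −0.783) at 13.7 ± 2.28 FPKM. These genes were picked for their likeness out of all genes, and their r is a description without a test.

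The spread of the 3 genes was moderate for transcripts of their level. Of the 70 genes with a mean of at least 500 FPKM, 14 had a smaller SD over the 12 libraries than Nefl (0.07 on the log2 scale), 24 a smaller one than Nefh (0.08) and 40 a smaller one than Nefm (0.11), beside a median of 0.10. Without measured levels of other large-neuron genes, whether the shared variation of Nefl, Nefm and Nefh follows the number of large neurons in the dissected ganglia was not tested.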

How the data were processed

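RNA of 12 rat trigeminal ganglion samples was sequenced, 3 per capsule group, from libraries made with the NEBNext Ultra kit, per the labels' protocols. The deposited files hold FPKM computed by the authors, per the names of the deposited files. Per the submitters' processing notes, the tools were DESeq2, featureCounts, HISAT2, fastp and CASAVA, listed with no version or role. What build, annotation and strand setting they used is not given in the sources used here. A table of the whole series repeats these values under a misaligned header and was not used.

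Whole fragments were recovered from FPKM for 21071 of 21071 genes above 0 in at least 2 libraries, as the smallest whole numbers that fit (largest deviation 0.000243). The authors' denominators differed from the recovered totals by −1.02% to 2.53%. Counting error is stated for fragments, which carry no molecular identifiers and may be copies of 1 molecule. Every pair of replicate libraries differed by more than counting noise (the lowest chi-square per degree of freedom was 7.26).

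All 12 libraries entered 1 limma-trend fit (limma 3.58.1, R 4.3.3, robust) of log2(FPKM + 1) on group means over genes reaching 1 FPKM in 3 or more libraries, with Benjamini-Hochberg adjustment over all genes and a threshold of 0.05. The slope used E2 percent. Ratios and correlations used permutation tests in numpy 2.4.6 and scipy 1.17.1. The fit and the recovery were tested on simulated data. The members, lists and alternatives were chosen with earlier results of these data known. Apart from the 3 members, the rule named the 5 genes of highest and the 2 of lowest r with their mean pattern, or 2 of each where identifiers had no symbol, as here. The lists of other neuronal genes could not be matched to identifiers and are not reported. Alternatives were another pseudocount, no filter, the compared groups alone, a replicate block, limma's voom on recovered fragments, other scalings and leaving out each library. The relation to depth, the ranks of companions leaving out libraries or among genes of at least 500 FPKM, the pairings of ratios with 2 groups and the values without vehicle replicate 1 were added after seeing the data.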

Additional observations from a re-analysis of the deposited data

How the results depend on the processing

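None of the 3 genes passed the threshold in any comparison under any of the 18 alternatives (smallest limma adjusted p 0.746), and differences this small changed sign when single libraries were left out. Leaving out 1 library at a time, the log2 difference from vehicle at 5% E2 ran from −0.0857 to 0.0521 for Nefm and from −0.110 to 0.00716 for Nefh, that of Nefm at 20% E2 from −0.0189 to 0.117, and that of Nefm at 40% E2 from −0.109 to 0.0382. For 20% against 5% E2 it ran from −0.0310 to 0.0383 for Nefl and from −0.0639 to 0.0535 for Nefh. For 40% against 5% E2 the ranges were −0.114 to 0.00651 for Nefl, −0.105 to 0.0612 for Nefm and −0.0985 to 0.0205 for Nefh, and for 40% against 20% E2 −0.114 to 0.00631 for Nefl and −0.0865 to 0.0245 for Nefh. The slope of Nefm on E2 percent ran from −0.0776 to 0.0552. The other differences and slopes kept their sign without any 1 library, but not their size. At 40% E2 against vehicle they ran from −0.155 to −0.0347 for Nefl and from −0.143 to −0.0322 for Nefh, and at 20% E2 from −0.0574 to −0.0233 for Nefl and from −0.0886 to −0.0276 for Nefh. Nefl at 5% E2 ran from −0.0793 to −0.0101, Nefm from 0.0117 to 0.147 for 20% against 5% E2 and from −0.170 to −0.0228 for 40% against 20% E2, and the slopes from −0.133 to −0.0245 for Nefl and from −0.126 to −0.0254 for Nefh. With voom on recovered fragments, Nefl between 20% and 5% E2 was −8.95e-05 in place of 0.00, which is the 1 change of sign outside these ranges. No ratio passed its threshold under any alternative. Pearson r of Nefl and Nefm ran from 0.558, without 40% E2 replicate 3, to 0.811, without vehicle replicate 1. The other 2 pairs kept their call in every alternative, and all 3 kept it with a pseudocount of 0.1 and with both other scalings.

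The labels give replicate numbers 1 to 3 in each group without saying that a number marks a shared animal or day. Over all tested genes, libraries of the same number in different groups had deviations from their group means that correlated at −0.0544 to 0.0772 (mean 0.00849). Libraries of other numbers correlated at −0.107 to 0.0979 (mean −0.00422). Of the 12 libraries, 4 correlated best with their own number out of the 3 numbers. With the replicate number as a block, 0 of the 3 genes passed in any comparison (for Nefl at 40% E2 against vehicle, limma adjusted p = 0.823). The log2 difference, −0.11, is the same by construction in this balanced design. Counting error was at most 0.374% of a value at these depths.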
